A study of Mus musculus with 6 samples.

Results

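Transcripts of 10 genes of pericellular proteolysis were measured in Raw264.7 cells, a mouse macrophage line: the membrane-anchored ADAM metalloproteases Adam8, Adam9, Adam10, Adam15 and Adam17, the matrix metalloproteases (MMPs) Mmp12, Mmp13 and Mmp14, the urokinase gene Plau and its receptor gene Plaur. The genes were taken by symbol from the 16171 genes of the count table, and all 10 were present. Of these, 8 were among the 11480 genes with enough reads to be tested, while Mmp13 and Mmp14 were not. THCaP denotes wild-type cells on titanium carrying a biomimetic calcium phosphate nanowire coating (3 libraries), and TH denotes wild-type cells on titanium whose titanate nanowires came from an alkaline heat treatment (3 libraries). On both surfaces cells attached for 12 h, were exposed to 1 µg/mL of the bacterial product LPS for 2 h and were cultured for 1 d more, so no sample was without LPS. The comparison asks how the coating alters expression in these macrophages relative to the uncoated nanowires.

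Macrophages release many signalling proteins by cutting them from the cell surface, a step called shedding. ADAM17 frees tumour necrosis factor and several receptors, ADAM10 cuts Notch and transmembrane chemokines, and both are made as precursors from which the protease furin removes an inhibitory segment. Urokinase bound to its receptor turns plasminogen into plasmin at the cell surface, and plasmin in turn degrades fibrin and activates some MMPs, the enzymes that break down collagen and other matrix proteins. RNA levels do not measure any of these activities, which are also set by maturation, inhibitors and location.

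Library totals ran from 28000099 to 30317108 counts. Libraries of a surface differed beyond sampling noise in every pair (chi-square per degree of freedom 3.84 to 48.4), and the labels do not say whether they came from separate cultures, so the p-values capture only how these samples spread, which may be technical. Macrophage markers were present on both surfaces: the summed level of 10 such genes was 2642 to 2939 CPM (counts scaled to library size with TMM factors) on THCaP and 2450 to 2957 CPM on TH, and 9 of the 10 were above 1 CPM. Of these 10, Lyz2 rose on THCaP (log2 fold change 0.63, edgeR adjusted p = 0.0223), 0 fell and 9 were not called, with Fcgr1 at 0.60 (0.0674) and Cd14 at −0.35 (0.0501). Of 6 osteoclast markers in the table, 2 of 5 tested fell on THCaP (Acp5 and Dcstamp) and 0 rose, and their sum was 35.4 to 42.3 CPM on THCaP against 50.7 to 65.0 CPM on TH. Among all tested genes, 12.0% were lower on THCaP and 11.6% higher. The endothelial marker sum, almost all of it Pecam1, was 2.27 to 4.06 CPM on THCaP and 4.55 to 5.65 CPM on TH. All 8 fibroblast and osteoblast markers and all 4 lymphoid and 4 neutrophil markers in the table were below 1 CPM, with S100a8 at 0. The part of these marker differences in the results below was not tested, and in bulk RNA fewer cells of a type and less RNA per cell cannot be told apart.

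On the FPKM scale, which divides by gene length and allows levels of different genes to be compared, the 10 genes spanned from abundant to nearly silent. On THCaP the order was Plau (101 ± 20.5 FPKM, mean ± SD, n = 3) and Adam15 (100.5 ± 0.272), whose libraries overlapped, then Adam10 (71.3 ± 3.40), Adam17 (44.1 ± 2.44), Adam9 (32.3 ± 0.477), Adam8 (20.2 ± 1.31) and Plaur (7.65 ± 1.02), with no overlap between these neighbours. On TH the order was Plau (174 ± 2.52 FPKM, n = 3), Adam15 (112 ± 3.24), Adam10 (60.5 ± 2.84), Adam17 (53.9 ± 3.04), Adam8 (36.5 ± 2.25), Adam9 (32.5 ± 2.90) and Plaur (7.90 ± 1.14), and here only Adam8 and Adam9 overlapped. By mean, only Adam8 and Adam9 changed places between the surfaces, and their libraries overlapped on TH. Plau ranked above Adam15 by mean on both surfaces, but stood clear of it only on TH. Mmp12 lay far below these genes at 0.224 ± 0.127 FPKM on THCaP and 0.109 ± 0.0274 FPKM on TH. Mmp14 and Mmp13 were lowest on both surfaces, each at most 0.0254 FPKM in every library. The summed FPKM of the 5 ADAM genes was 272, 268 and 266 in THCaP replicates 1 to 3 and 293, 296 and 299 in TH replicates 1 to 3.

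**Figure D1:**
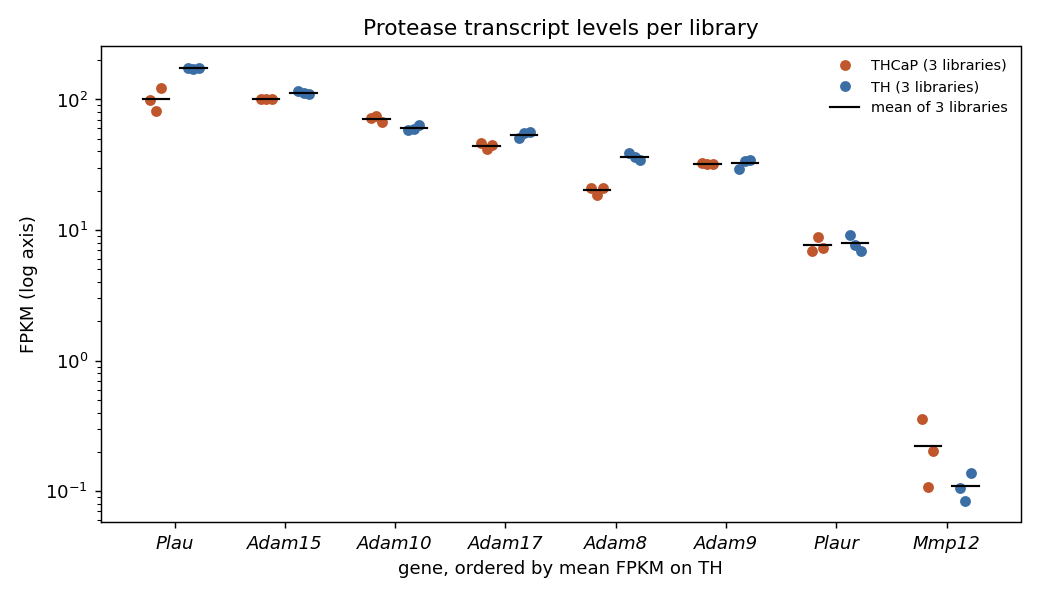
FPKM per library on a log axis for the 8 tested genes, ordered by their mean on TH; points are libraries (THCaP left of TH, 3 each) and bars are means. Plau, Adam8, Adam17 and Adam15 lie lower on THCaP without overlap, Adam10 lies higher without overlap, and Adam9, Plaur and Mmp12 overlap between the surfaces.

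The RefSeq promoter windows (GRCm38.p6, 250 bases before to 50 bases after the annotated start, written in the direction of transcription) matched 8 of the 10 genes by symbol, in 9 windows. They were searched for 2 motifs known from protease promoters: the AP-1 site, spelled TGANTCA and its own reverse complement, and the PEA3 site of ETS factors, spelled AGGAAG, on both strands. AP-1 letters were present in 7.81% and PEA3 letters in 35.4% of 32851 windows of this length. Windows are shown for Adam8 and Adam17, which fell on THCaP, and for Plaur and Mmp13, which hold both motifs. Plau, which also fell on THCaP, and Adam9 had no matching window and were not searched. Capitals mark matches. The Adam8 window lies at chr7:139992513-139992812 on the minus strand, that of Adam17 at chr12:21373583-21373882 on the minus strand, that of Plaur at chr7:24462233-24462532 on the plus strand and that of Mmp13 at chr9:7272264-7272563 on the plus strand.
Adam8: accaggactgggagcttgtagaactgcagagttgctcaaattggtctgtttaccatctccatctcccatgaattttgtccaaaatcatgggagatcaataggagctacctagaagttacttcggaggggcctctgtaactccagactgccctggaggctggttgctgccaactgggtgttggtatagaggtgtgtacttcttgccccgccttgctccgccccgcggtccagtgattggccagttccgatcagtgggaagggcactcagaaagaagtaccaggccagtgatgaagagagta
Adam17: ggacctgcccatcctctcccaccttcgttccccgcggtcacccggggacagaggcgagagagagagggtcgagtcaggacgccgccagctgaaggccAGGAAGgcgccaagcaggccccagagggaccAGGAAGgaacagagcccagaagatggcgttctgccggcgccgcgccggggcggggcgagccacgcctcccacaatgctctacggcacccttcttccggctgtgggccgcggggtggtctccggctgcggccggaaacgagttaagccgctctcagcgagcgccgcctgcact
Plaur: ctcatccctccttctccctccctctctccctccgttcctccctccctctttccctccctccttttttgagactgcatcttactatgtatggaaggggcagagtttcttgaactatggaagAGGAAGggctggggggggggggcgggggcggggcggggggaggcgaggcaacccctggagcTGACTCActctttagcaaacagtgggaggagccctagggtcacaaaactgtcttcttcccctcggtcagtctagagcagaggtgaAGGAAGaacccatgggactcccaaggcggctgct
Mmp13: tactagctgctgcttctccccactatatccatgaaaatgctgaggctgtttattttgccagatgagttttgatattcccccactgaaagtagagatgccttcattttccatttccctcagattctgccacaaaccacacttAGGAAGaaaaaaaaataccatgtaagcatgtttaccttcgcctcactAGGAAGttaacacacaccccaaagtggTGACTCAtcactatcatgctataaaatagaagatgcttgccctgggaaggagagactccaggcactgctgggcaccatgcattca

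AP-1 letters began at position −69 in Plaur and −35 in Mmp13, counted from the annotated start, and PEA3 letters stood at −130 and 17 in Plaur and at −109 and −62 in Mmp13. The Mmp13 sites thus lie near each other upstream of the start, the arrangement known from collagenase genes. Adam17 had PEA3 letters at −153 and −122 and no AP-1 letters, and the Adam8 and Adam15 windows had neither. Adam10 had 3 PEA3 matches, of which those at 24 and 28 overlap each other, and Mmp14 had 1. Mmp12 has 2 annotated starts: the window of one held 1 PEA3 match and that of the other 1 AP-1 match at −44. A match is only a description of the letters in the window.

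Of the 8 tested genes, 3 fell on THCaP (Adam8, Plau and Adam17), 0 rose and 5 were not called by edgeR's quasi-likelihood test with Benjamini-Hochberg adjustment over all tested genes. That is 37.5% of the tested genes lower, where 12.0% of all tested genes were lower and 11.6% higher (1376 and 1333 genes, or 1063 and 1904 when scaled by library totals, which also put 1 of the 8, Adam10, among the higher). Their median log2 fold change, THCaP over TH, was −0.16, and that of all tested genes was 0.0064. The CPM of the surfaces did not overlap for 5 of the 8 (4 lower, 1 higher), or 62.5%, beside 43.4% of all tested genes. These shares rest on 8 genes that were not sampled at random. The genes, and the lists of related genes below, were chosen with earlier results of these data known. Shares of them are therefore descriptive only.

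**Figure D2:**
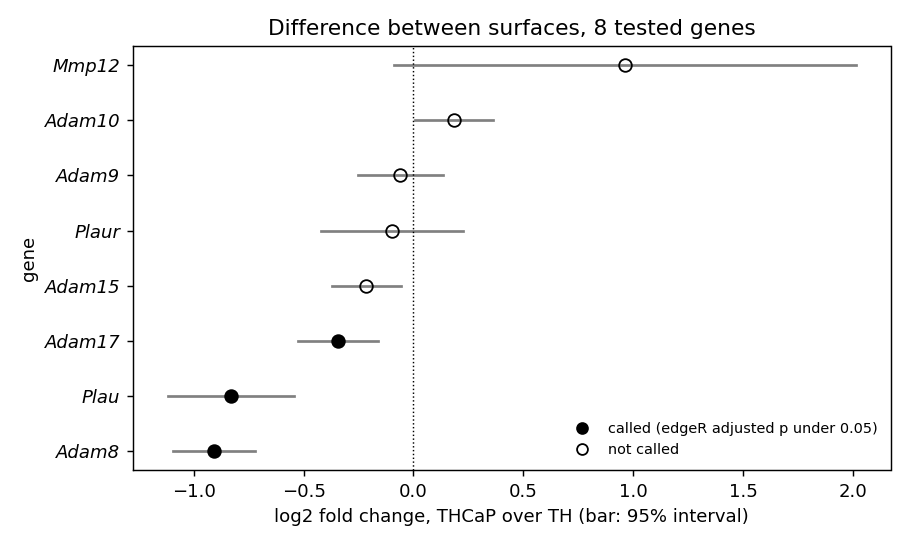
Log2 fold change of THCaP over TH for the 8 tested genes, with 95% intervals from the edgeR fit; filled points are called at an adjusted p under 0.05. Adam8 (−0.91) and Plau (−0.83) lie farthest below 0 with overlapping intervals, Adam17 (−0.34) is the third called gene, and Mmp12 has the widest interval.

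Of the sheddase pair Adam17 and Adam10, Adam17 fell on THCaP and Adam10 was not called. Adam17, the tumour necrosis factor-converting enzyme, had 203, 183 and 197 CPM in THCaP replicates 1 to 3, against 229, 251 and 259 CPM in TH replicates 1 to 3. All 3 THCaP libraries lay below all TH libraries, and Adam17 fell by 0.34 on the log2 scale (SE 0.08, 1.27-fold, edgeR adjusted p = 0.0191). This call was lost without THCaP replicate 1 (edgeR adjusted p = 0.0668), TH replicate 2 (0.0768) or TH replicate 3 (0.0934). Adam10 had 333, 348 and 315 CPM in THCaP replicates 1 to 3, against 281, 285 and 310.0 CPM in TH replicates 1 to 3. The groups did not overlap, though THCaP replicate 3 and TH replicate 3 came close, and Adam10 was not called (log2 fold change 0.18, SE 0.08, 95% interval 0.0064 to 0.36, edgeR adjusted p = 0.117). Scaled by library totals it passed the threshold (0.24, edgeR adjusted p = 0.0493).

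The ratio of Adam17 to Adam10 FPKM within a library does not depend on how libraries are scaled. It was 0.645, 0.556 and 0.660 in THCaP replicates 1 to 3, against 0.862, 0.931 and 0.882 in TH replicates 1 to 3. The highest THCaP ratio lay below the lowest TH ratio, a mean log2 difference of −0.53 (two-sided exact permutation p = 0.1, the smallest that 3 against 3 libraries can give). Transcripts of Adam10 outnumbered those of Adam17 per unit length in all 6 libraries, by the widest margin in THCaP replicate 2. In GENCODE vM21, exons of Adam17 share 311 of 7154 bases with Iah1 on the opposite strand, and the counting is not stated to use strand. The deposited counts and FPKM give Adam17 a length of 4486 bases, so this share may not hold for the annotation that was counted. Reads within the shared bases were not counted separately. Iah1 had 2226 counts summed over THCaP and 2266 over TH, and Adam17 had 17031 and 21048. What the shared bases add to or take from the Adam17 counts was not tested.

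Of 10 tested genes that mature or carry ADAM proteases, 3 fell on THCaP, 0 rose and 7 were not called, with a median log2 fold change of −0.0075. Those that fell were 30% of the tested list, beside 12.0% of all tested genes. Rhbdf2, an inactive rhomboid protein that carries ADAM17 to the cell surface in macrophages, had 61.7, 58.2 and 61.9 CPM in THCaP replicates 1 to 3 and 79.2, 83.4 and 79.8 CPM in TH replicates 1 to 3. Its groups were well apart (−0.41, SE 0.07, edgeR adjusted p = 0.00753). Its relative Rhbdf1 fell by 0.66 (SE 0.14, edgeR adjusted p = 0.0119) and Furin, the convertase of the precursors, fell by 0.58 (SE 0.13, edgeR adjusted p = 0.0173). Both lost the call without THCaP replicate 1, TH replicate 2 or TH replicate 3, with adjusted p up to 0.0558 for Rhbdf1 and 0.0707 for Furin. The convertase gene Pcsk7 (0.18, SE 0.09) and Tspan14 (0.02, SE 0.08), a tetraspanin partner of ADAM10, were not called.

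Among 23 tested genes whose proteins are shed by ADAM proteases, 10 fell on THCaP, 0 rose and 13 were not called, with a median of −0.20. The share lower was 43.5%, beside 12.0% of all tested genes. Hbegf, a ligand of the epidermal growth factor receptor released by shedding, had 1.89, 2.11 and 2.56 CPM in THCaP replicates 1 to 3 and 8.69, 8.94 and 8.56 CPM in TH replicates 1 to 3. No other tested gene of this list differed by as much (−2.00, SE 0.17, edgeR adjusted p = 0.000707). The co-stimulatory receptor Cd40 fell by 1.71 (SE 0.19, edgeR adjusted p = 0.00166), and Cxcl16, a transmembrane chemokine cut by ADAM10, fell by 0.90 (SE 0.09, edgeR adjusted p = 0.00103). The receptor kinase Axl fell by 0.89 (SE 0.25) and the Notch ligand Jag1 by 0.77 (SE 0.16). Axl kept its call only without THCaP replicate 3 when single libraries were left out (adjusted p up to 0.131), and Jag1 lost it without TH replicate 2 or TH replicate 3 (up to 0.0547). The abundant substrates Csf1r, the receptor of macrophage colony-stimulating factor (0.31, SE 0.10, edgeR adjusted p = 0.0504), and App, the amyloid precursor (−0.20, SE 0.07, edgeR adjusted p = 0.0637), lay just outside the threshold. Csf1r was called higher in 9 of 16 alternatives, among them DESeq2 (adjusted p = 0.0194), library totals (0.0298) and the fits without THCaP replicate 3 (0.0159) or TH replicate 1 (0.0222), while its adjusted p rose to 0.189 without TH replicate 3. App was called lower in 3, namely DESeq2 (0.0370), the filter of 5 CPM (0.0489) and the fit without TH replicate 1 (0.0411).

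Adam8, a protease of myeloid cells that cuts adhesion and signalling proteins, fell about as much as Plau, described next. It had 86.4, 77.0 and 85.5 CPM in THCaP replicates 1 to 3, against 164, 155 and 147 CPM in TH replicates 1 to 3. The THCaP libraries lay close together and the lowest TH library was far above them. Adam8 fell by 0.91 on the log2 scale (SE 0.08, 95% interval −1.09 to −0.72, 1.87-fold, edgeR adjusted p = 0.000787), and without single libraries the value stayed between −0.95 and −0.86 with every adjusted p at or below 0.0079. It lies on chromosome 7 at 139978932 to 139992562 of GRCm38 and is protein coding.

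The other ADAM genes differed little. Adam15, which binds integrins through its disintegrin domain, had 295, 299 and 297 CPM in THCaP replicates 1 to 3 and 354, 339.7 and 339.8 CPM in TH replicates 1 to 3. The groups did not overlap and the THCaP libraries were nearly equal, yet it missed the threshold narrowly (log2 fold change −0.21, SE 0.07, edgeR adjusted p = 0.0518). It was just inside with DESeq2 (adjusted p = 0.0219), the filter of 5 CPM (0.0398), limma-voom (0.0497) and RLE factors (0.0499), and outside in the other 12 alternatives, for example with no filter (0.0827), library totals (0.116), the replicate block (0.123) or any single library left out (0.0570 to 0.202). Its exons in GENCODE vM21 share 1263 of 6145 bases with the antisense gene 4731419I09Rik, while the deposited counts and FPKM give it a length of 3007 bases. Adam9, another sheddase, had 132, 131 and 128 CPM in THCaP replicates 1 to 3 and 121, 141 and 145 CPM in TH replicates 1 to 3. The THCaP values fell inside the TH range (−0.06, SE 0.09, 95% interval −0.25 to 0.13, edgeR adjusted p = 0.627).

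Plau, which encodes the plasminogen activator urokinase, had 224, 184 and 275 CPM in THCaP replicates 1 to 3, against 408, 398 and 411 CPM in TH replicates 1 to 3. TH libraries were close to each other, while THCaP libraries were spread, with replicate 2 lowest and replicate 3 nearest to TH. Plau fell by 0.83 on the log2 scale (SE 0.13, 95% interval −1.12 to −0.54, 1.78-fold, edgeR adjusted p = 0.00493). It was −0.99 without THCaP replicate 3 and −0.70 without THCaP replicate 2, called in each case. Plaur, the membrane-anchored receptor of urokinase, had 10.5, 13.5 and 11.2 CPM in THCaP replicates 1 to 3 and 14.4, 12.3 and 10.96 CPM in TH replicates 1 to 3. Its groups overlapped (−0.10, SE 0.14, 95% interval −0.42 to 0.23, edgeR adjusted p = 0.644), and its sign turned to 0.0122 without TH replicate 1. On GRCm38, Plau lies on chromosome 14 at 20836660 to 20843385 and Plaur on chromosome 7 at 24462484 to 24475968, both protein coding.

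Within a library, the FPKM of Plau over that of Plaur was 14.5, 9.28 and 16.8 in THCaP replicates 1 to 3, against 19.2, 22.1 and 25.5 in TH replicates 1 to 3. Every THCaP ratio was below every TH ratio, with a mean log2 difference of −0.75 (two-sided exact permutation p = 0.1, the smallest possible). Transcripts of urokinase exceeded those of its receptor in all 6 libraries.

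**Figure D3:**
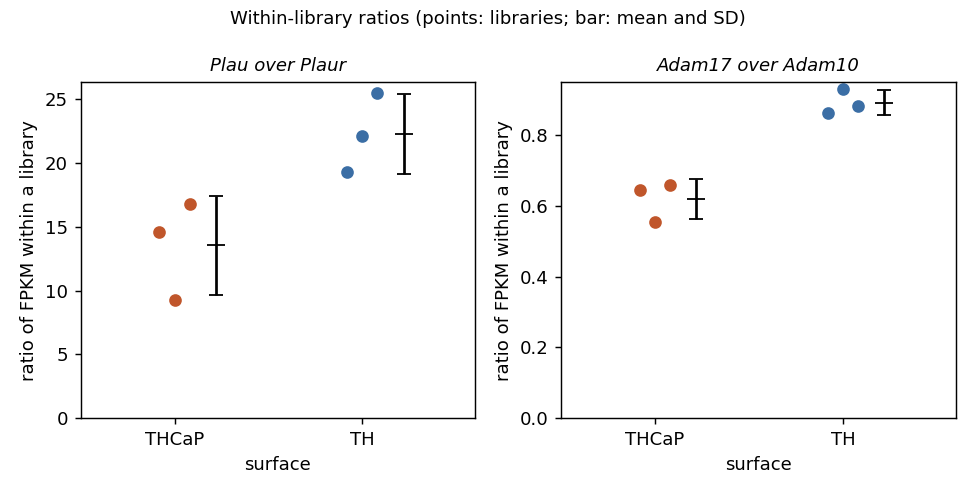
Ratio of FPKM within each library, Plau over Plaur (left panel) and Adam17 over Adam10 (right panel), for 3 THCaP and 3 TH libraries; black bars are the mean and SD. THCaP libraries lie below TH libraries in both panels, at 13.5 ± 3.84 against 22.3 ± 3.13 and at 0.62 ± 0.0563 against 0.892 ± 0.0356.

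Of 11 tested partners of the plasminogen system, 2 fell, 0 rose and 9 were not called, with a median of −0.0763. The share lower was 18.2%, not far from the 12.0% of all tested genes. Plat, the tissue-type plasminogen activator, fell by 1.25 (SE 0.28, edgeR adjusted p = 0.0157) from a low level, at 0.956 ± 0.325 CPM on THCaP and 2.28 ± 0.269 CPM on TH (n = 3 each), and lost the call without THCaP replicate 1 or TH replicate 2 (up to 0.0694). Plgrkt, a plasminogen receptor, fell by 0.45 (SE 0.09, edgeR adjusted p = 0.0116). The plasminogen-binding annexin Anxa2 (−0.09, SE 0.08) and the endocytic receptor Lrp1 (−0.09, SE 0.12) were not called. Plg, which encodes plasminogen itself, had 0 counts in every library.

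Protease inhibitors were few. Of 3 tested, 2 fell and 1 was not called, with a median of −0.86. The share lower was 66.7% of only 3 genes, beside 12.0% of all tested genes. Serpinf2, the plasmin inhibitor, fell by 1.10 (SE 0.30, edgeR adjusted p = 0.0285), a call lost without THCaP replicate 1 or any single TH library (up to 0.0866). Timp1, an inhibitor of MMPs, was below 1 CPM on average on both surfaces and was not called (−0.86, SE 0.40, edgeR adjusted p = 0.145), but it was called at −1.43 without THCaP replicate 2 (edgeR adjusted p = 0.0431).

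Mmp13 and Mmp14 were at or near the detection limit, and Mmp12 was low but had reads in every library. Mmp12, macrophage elastase, had 38, 12 and 22 counts in THCaP replicates 1 to 3, against 12, 9 and 15 counts in TH replicates 1 to 3. Its groups overlapped, and a log2 fold change of 0.96 (SE 0.47, 95% interval −0.0891 to 2.01, edgeR adjusted p = 0.159) was not called. It was 0.45 without THCaP replicate 1, the library with the most Mmp12 reads. Without THCaP replicate 2 it was 1.295 (edgeR adjusted p = 0.0628), also not called. Mmp13, collagenase 3, had 0, 2 and 0 counts in THCaP replicates 1 to 3 and 1, 0 and 0 in TH replicates 1 to 3. Mmp14, a membrane-type MMP, had 1, 2 and 1 counts in THCaP replicates 1 to 3 and 0, 2 and 2 in TH replicates 1 to 3. A count of 0 allows up to 3 counts, which covers counting error only. That is at most 0.0401 FPKM for Mmp13 in a library. For Mmp14 it is 0.0260 FPKM in TH replicate 1, its only library at 0. Libraries with 1 or 2 counts allow more than this. No difference between the surfaces was detectable for either gene at this depth, and the ratio of Mmp14 to Mmp13 could not be formed because Mmp13 was at 0 in most libraries.

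Of 17 other MMP genes, 12 were in the table and 5 could be tested: 1 fell, 0 rose and 4 were not called, with a median of −0.0766. The share lower was 20%, not far from the 12.0% of all tested genes. The one that fell was Mmp9, gelatinase B, which had 1.09, 1.14 and 2.08 CPM in THCaP replicates 1 to 3 and 4.61, 5.30 and 6.02 CPM in TH replicates 1 to 3 (−1.88, SE 0.26, edgeR adjusted p = 0.00369). Mmp19 (−0.08, SE 0.15) and Mmp24 (0.02, SE 0.33) were not called. Of 10 other ADAM genes on the list only Adam1a could be tested, at 1.18 ± 0.294 CPM on THCaP and 0.545 ± 0.173 CPM on TH (n = 3 each; 1.10, SE 0.35, edgeR adjusted p = 0.0459). Outside the list, the tested genes Adam3 (0.12, edgeR adjusted p = 0.744) and Adam4 (0.18, edgeR adjusted p = 0.844) were not called. Adam1a, named after its value was seen, was the only gene called higher in any of the 6 lists, and no listed gene was called higher without THCaP replicate 1, THCaP replicate 2, TH replicate 2 or TH replicate 3. Over all 6 lists 18 of 53 tested genes were lower and 1 was higher (18 and 5 when scaled by library totals), with a median of −0.14, and the number lower was 10 without THCaP replicate 1, 9 without TH replicate 2 and 10 without TH replicate 3. The 18 lower genes were 34% of the 53, beside 12.0% of all tested genes lower and 11.6% higher. Because the lists were chosen with earlier results of these data known, this share only describes the listed genes.

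**Figure D4:**
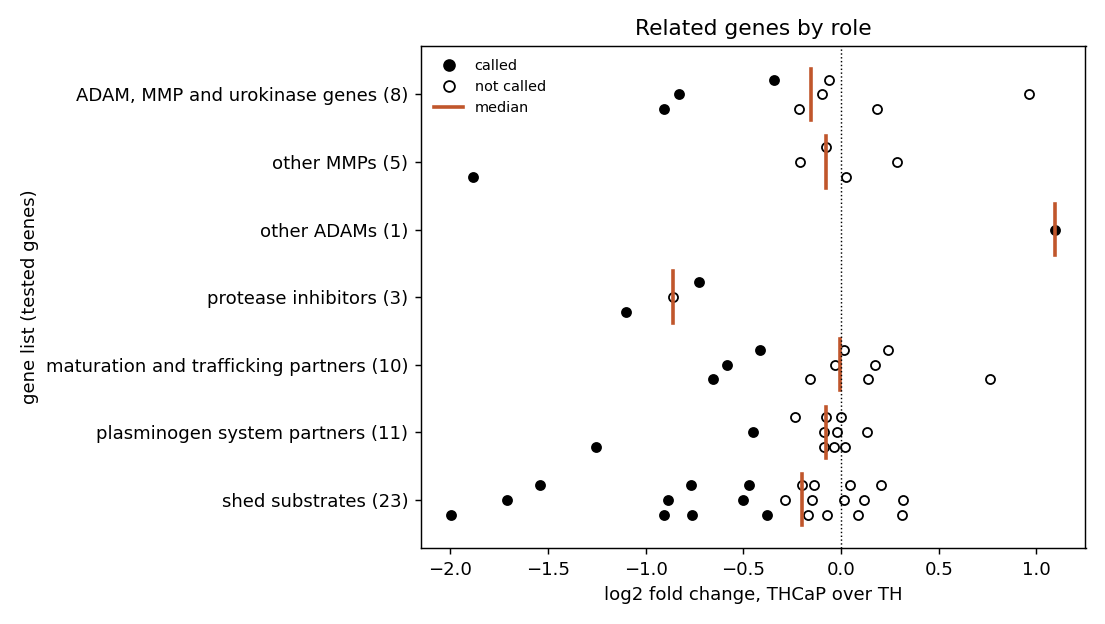
Log2 fold change of THCaP over TH for each tested gene of the 10 proteases (top row) and of 6 lists of related genes; filled points are called, open points are not, and the coloured line is the median of the row. Called genes lie below 0 in every row except that of other ADAMs, whose single tested gene Adam1a is at 1.10.

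The genes whose pattern over the 6 libraries was most like that of Adam8 were Prxl2a, Spp1, which encodes osteopontin, and Cxcl16. Their root mean square distance from Adam8, on log2 CPM centred on each gene's mean, was 0.0492, 0.0671 and 0.0773 among 8906 candidates with at least 10 CPM. For Plau they were Zc3h12a, which encodes the ribonuclease regnase-1, Pip5k1b, a phosphoinositide kinase gene, and Anxa4, an annexin gene, at distances of 0.0350, 0.0408 and 0.0435. The log2 fold changes of these 6 genes ran from −0.78 to −0.94, against −0.91 for Adam8 and −0.83 for Plau. Close values follow from the choice, which used the same 6 libraries.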

How the data were processed

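RNA sequencing of 6 libraries (3 THCaP, 3 TH) was deposited as raw read counts per gene, with no normalisation. The genome build was mm10 and the tools fastp, HISAT2 and HTSeq, per the submitters' processing notes; their versions, the annotation and the strand setting were not given in the sources used. The authors also deposited FPKM; for the 11923 genes that reached 10 counts in some library, count and FPKM gave a gene length whole within 0.01 bases in 100% of genes, so FPKM add only that length.

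Counts were tested in R 4.3.3 with edgeR 4.0.16 (filterByExpr with minimum count 10 and minimum total 15, TMM factors, robust quasi-likelihood F test, no covariate, Benjamini-Hochberg over all 11480 tested genes, called under 0.05). The SE is the size of the log2 fold change over the square root of F, and 95% intervals use the fit's degrees of freedom. The script was tested on simulated data. GENCODE vM21, on the GRCm38 assembly that mm10 names, gave loci and overlaps.

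The 10 genes and the 6 lists were chosen with earlier results of these data known. From each list, up to 5 called genes of at least 1 CPM with the largest change and up to 2 of the genes not called, those with the list's highest mean CPM, were named; 1 of the genes so chosen is not reported here. Alternatives were DESeq2 1.42.0, limma-voom (limma 3.58.1), RLE factors, library totals, no filter, a filter of 5 CPM in 3 libraries, a replicate block, each library left out, and limma on log2(FPKM + 1) and log2(FPKM + 0.1) at a mean FPKM of at least 1, the first of these also unfiltered. Of the 97 listed genes, 83 were in the table and 53 were tested.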

Additional observations from a re-analysis of the deposited data

How the results depend on the processing

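Adam8 and Plau kept direction and call in all 16 alternatives, and Adam9, Plaur and Mmp12 were called in none that tested them (the filter of 5 CPM and the filtered FPKM fits left out Mmp12). Adam17 lost its call with unfiltered log2(FPKM + 1) (−0.28, adjusted p = 0.0585) and ranged from −0.39 to −0.30 with single libraries left out. Adam15 passed the threshold with DESeq2 (−0.22), limma-voom (−0.21), RLE factors (−0.22) and the filter of 5 CPM (−0.22). Adam10 passed it with library totals (0.24), log2(FPKM + 1) (0.23) and log2(FPKM + 0.1) (0.24), so that 1 of the 10 genes was called higher there in place of 0. Library totals moved the median of all tested genes to 0.0588, against 0.0064 with TMM factors.

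Of all tested genes, 1333 were higher and 1376 lower; the counts were 766 and 528 with unfiltered log2(FPKM + 1), 1904 and 1063 with library totals, and 291 to 2145 and 465 to 2020 without single libraries. Listed genes called higher numbered 1; they numbered 3 with DESeq2, 2 with limma-voom, 5 with library totals, 2 with no filter, 0 with the filter of 5 CPM, 3 with the replicate block, 4 with log2(FPKM + 1), 4 with log2(FPKM + 0.1), and 0 to 4 without single libraries. Listed genes called lower numbered 18, against 11 with unfiltered log2(FPKM + 1) and 9 to 19 without single libraries. Of 13 named listed genes that were called, 7 were called in each alternative in which they were tested. The cause of these shifts was not tested.

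Deviations of same-numbered libraries from their surface means correlated across genes at −0.0200, −0.0723 and 0.0598. For differently numbered libraries the values ran from −0.0926 to 0.101. Such weak correlations cannot show whether same-numbered libraries were prepared together, and the labels do not say. With the replicate block 1424 genes were higher and 1457 lower, and Adam8, Plau and Adam17 were again the called genes among the 10. Depth limits Mmp13 and Mmp14 to a statement of near absence of reads.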
